A study of Rattus norvegicus with 36 samples.

Results

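The cholesterol biosynthesis genes described here are 10 rat genes measured in cultured ovarian granulosa cells. They are Idi1, Fdps, Fdft1, Sqle, Lss, Cyp51, Msmo1, Sc5d and Dhcr7, which encode 9 enzymes of the pathway, and Insig1, which encodes a regulator of it. Probe sets were matched to these genes by gene symbol alone, from the array's annotation brought to current names. The 10 genes themselves were chosen with earlier results of these data known, so their counts beside those of all genes are descriptions. They were 10 of the 14217 genes with a single symbol, and 16 of the 31042 probe sets tested. Idi1, Cyp51, Lss and Fdft1 had 2 probe sets each and Sc5d had 3. Each gene is represented below by its brightest probe set, judged by the average of the 36 arrays.

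Cholesterol is made from acetyl-CoA through mevalonate, isoprenoids, squalene and lanosterol. The genes of the pathway share a regulator, the transcription factor SREBP2, which its escort protein SCAP carries to the Golgi apparatus for activation when membrane sterol is low. The INSIG proteins hold SCAP in the endoplasmic reticulum when sterol is abundant. Granulosa cells surround the oocyte, and under follicle-stimulating hormone (FSH), which acts largely through cyclic AMP (cAMP), they use cholesterol as the precursor of progesterone and convert androgen to oestradiol.

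Granulosa cells came from intact, unprimed immature female Sprague Dawley rats 21 to 27 days old and were released from follicles by needle puncture. After 24 h in medium with 5% serum they were held for 48 h without serum and with the androgen androstenedione, at 0.1 µM by the series' design text (the sample descriptions print another unit). All 12 groups shared these conditions and had 3 arrays each, 36 arrays in all. The groups were FSH at 3 ng per ml, cAMP at 1 mM (the labels name no analogue) and basal cells with neither, each with HPTE at 0, 1, 5 and 10 µM. HPTE is the hydroxylated metabolite of the insecticide methoxychlor and binds oestrogen receptors. The labels do not say whether the 3 arrays of a group came from separate animals, pools or wells, and the p-values then reflect only how far these arrays spread, which may be technical. In whole cultures, fewer cells of a type and less RNA per cell cannot be told apart.

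The values were log2 intensities, and a difference of 1 is a 2-fold change. Array medians lay between 65.8 and 73.7 intensity units, and arrays of one group correlated at 0.95 to 0.994. The 9 measured granulosa markers lay between the 41.3 (Esr2) and 100 (Gja1) percentiles of all probe sets by mean level, with Foxl2 at the 96.4 and Cyp19a1 at the 63.3. The 6 macrophage and leukocyte markers lay between the 1.3 (Itgam) and 71.9 (Cd14) percentiles. The 8 theca and stroma markers ran from 10.6 (Tcf21) to 82.3 (Col1a1), and the 4 endothelial markers from 23.7 (Vwf) to 84.1 (Kdr). The 5 oocyte markers ran from 21.4 (Bmp15) to 74.6 (Zp2), and the 3 of surface epithelium from 3 (Lgals7) to 49.1 (Krt7). Some markers of other cells were thus brighter than Cyp19a1. Fshr was not analysed here. Properties of the arrays touch the results in the following ways. The Gapdh control probes at the 3′ end exceeded those at the 5′ end by less in number 3 of every group, 0.767 to 1.07 on the log2 scale, against 1.61 to 2.40 in numbers 1 and 2. Number 2 of the unexposed FSH group and number 2 of the unexposed cAMP group went against their labels.

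Cyp19a1, which encodes aromatase, was at 11.49, 7.48 and 11.46 in numbers 1 to 3 of the unexposed FSH group, against 7.62, 11.01 and 6.46 in the unexposed cAMP group. Lhcgr, the luteinising hormone receptor gene, was at 10.27, 5.94 and 11.50 in the FSH arrays, against 5.66, 10.05 and 5.80 in the cAMP arrays. For both genes, each number 2 lay nearer to numbers 1 and 3 of the other group than to those of its own. Number 2 was also the lowest FSH array for Cyp19a1 at 1 µM HPTE, with 9.03, against 11.37 and 11.23 in numbers 1 and 3. The same held at 5 µM, with 5.08, against 9.03 and 8.26. For Lhcgr it was at 7.80, against 10.15 and 11.07, at 1 µM, and at 5.43, against 7.48 and 8.26, at 5 µM. At 10 µM number 2 was not the lowest FSH array for either gene. The arrays were kept under their labels, and the members' results that rest on the unexposed FSH or cAMP group are given without this pair as well where a call or a direction turns on it. The pair was noticed by genes that differed between the stimuli, so p-values without it are not independent of its omission. Those values are descriptions.

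**Figure D1:**
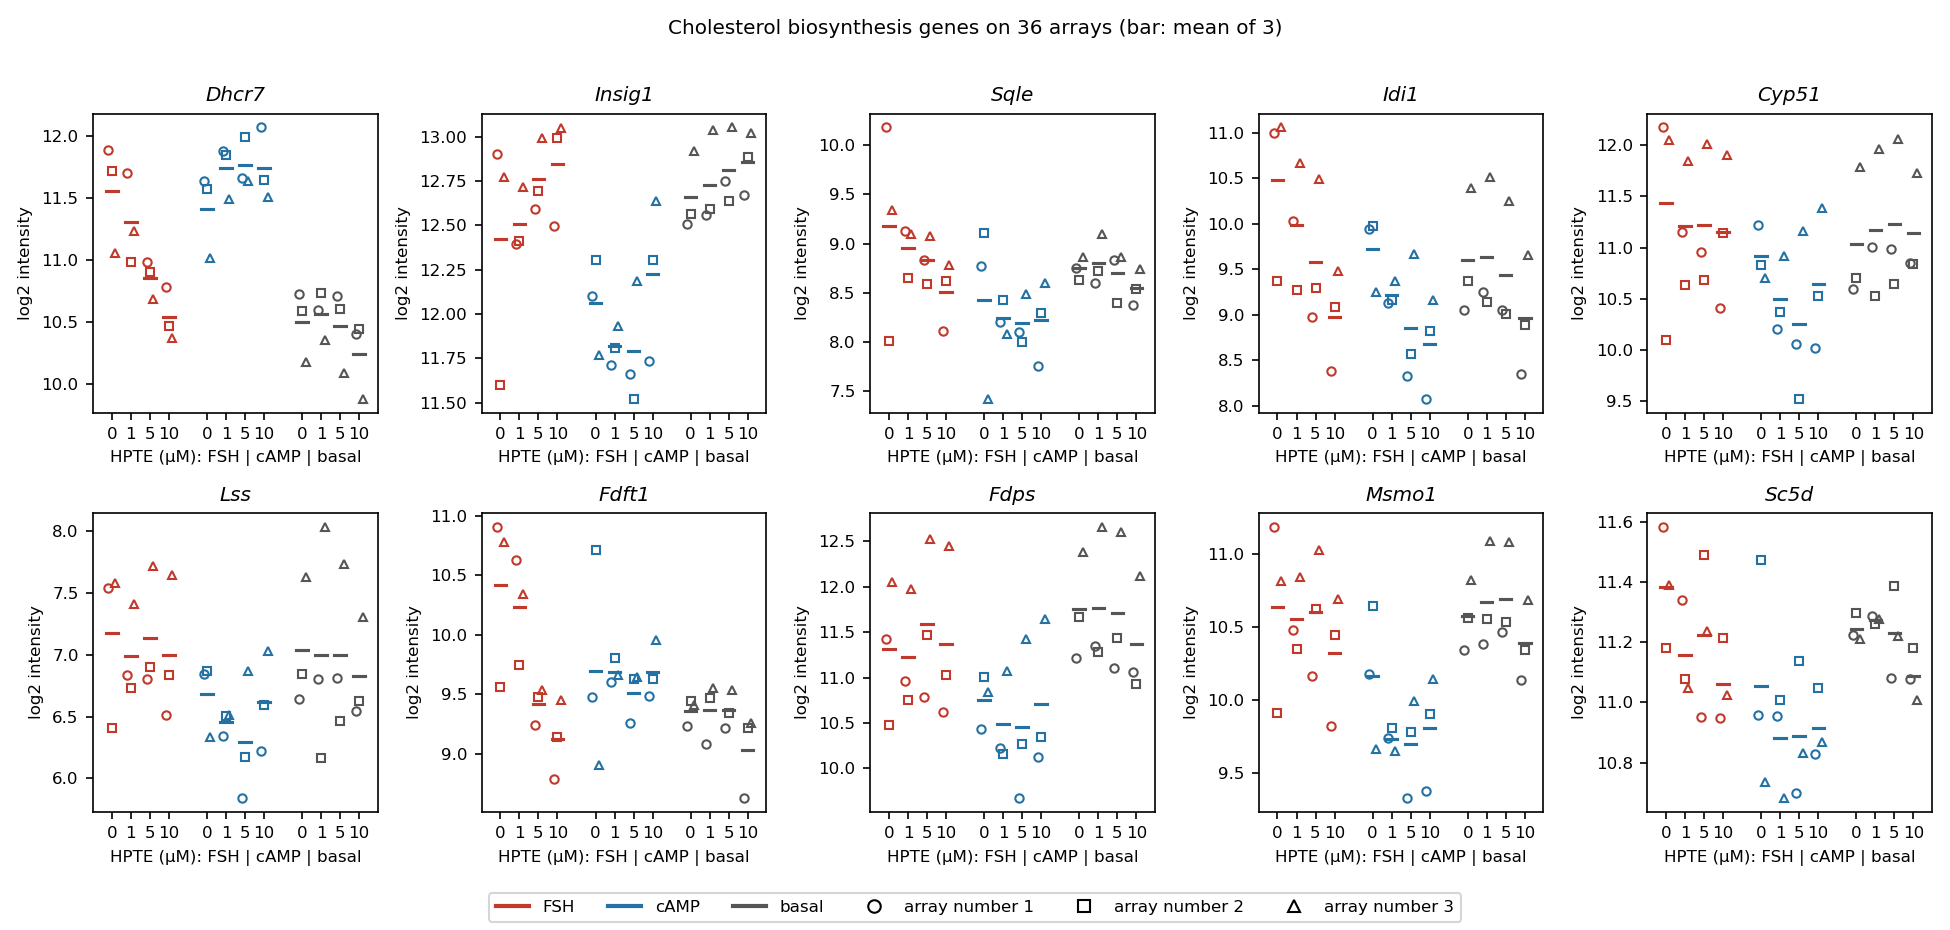
The log2 intensity of each of the 10 genes (one panel per gene) is plotted for every array, with FSH, cAMP and basal cells from left to right and the 4 HPTE doses within each. Points are arrays, marked by array number, and the short lines are group means of 3 arrays. Dhcr7 is high in all cAMP groups and in FSH cells at low doses, while most other genes are lowest in cAMP cells.

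Most members had lower means in cAMP than in basal cells, while Dhcr7 was higher at every dose. Fdft1 also lay above basal cells at every dose, by at most 0.66, and did not pass; in unexposed cells the difference was -0.17 without the number 2 pair. The lowest of the 12 group means lay in a cAMP group for 8 of the 10 genes, and in basal cells at 10 µM HPTE for Dhcr7 and Fdft1. The highest group mean lay in unexposed FSH cells for 6 genes. Group means of one gene spanned 0.50 (Sc5d) to 1.80 (Idi1) on the log2 scale, and the median SD within a group ran from 0.16 (Sc5d) to 0.78 (Fdps). Over 24 comparisons, Dhcr7 passed the test in 8, Fdft1 in 3, and Insig1 and Msmo1 in 2 each. The other 6 genes passed in none, and their spread between arrays was in part a spread between array numbers, described further on.

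Under FSH without HPTE, Dhcr7 and Fdft1 rose, and the other 8 members did not pass. Dhcr7 encodes the reductase of the last step to cholesterol, and Fdft1 encodes squalene synthase, the first step committed to sterols. Dhcr7 was at 11.89, 11.72 and 11.06 in FSH cells, against 10.73, 10.58 and 10.17 in basal cells. Every FSH array lay above every basal array, and the pairs of the same number differed by 1.16, 1.13 and 0.89. The difference of means was 1.06 ± 0.23 (SE, limma, n = 3 each), a 2.09-fold rise with an adjusted p of 0.00244. Without the number 2 pair it was 0.98, with an adjusted p of 0.0161. A fit on the FSH and basal arrays alone ended the call (adjusted p = 0.0918).

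Fdft1 was at 10.91, 9.56 and 10.78 in unexposed FSH cells, against 9.23, 9.45 and 9.41 in basal cells. The groups did not overlap, but number 2 of the FSH group was only 0.11 above its basal partner. The difference was 1.05 ± 0.32 (2.08-fold, adjusted p = 0.0397 by limma), and it was 1.48 without the number 2 pair (adjusted p = 7.35e-05). Leaving out any 1 of 5 of the 6 arrays ended the call, with adjusted p up to 0.228, as did arrays 1 and 2 alone (0.269) and a fit on the compared groups alone (0.218), and the second Fdft1 probe set gave 1.05 with an adjusted p of 0.0553.

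These were 2 of 10 members higher and 0 lower, where 4.89% of all genes were higher and 5.34% lower. The median of the 10 differences was 0.28, against 0 over all genes, and the arrays of the 2 groups did not overlap for 2 members, against 20.8% of all genes. Among the members that did not pass, the isoprenoid enzymes split: Idi1, which isomerises isopentenyl diphosphate, differed by 0.87 (adjusted p = 0.48) and Fdps, which makes farnesyl diphosphate, by -0.44 (adjusted p = 0.918). Leaving out the number 2 pair brought in Sqle, the squalene epoxidase gene, at 1.01 (adjusted p = 0.0371), which made 3 members higher, where 5.09% of all genes were. Sqle was at 10.18, 8.01 and 9.34 in FSH cells, against 8.75, 8.62 and 8.87 in basal cells, so number 2 of the FSH group was the lowest of the 6. With the array number as a block and without that pair, Idi1 passed as well, at 1.31 with an adjusted p of 0.00794, which made 4 members higher, where 10.4% of all genes were.

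At 1, 5 and 10 µM HPTE no member passed between FSH and basal cells, where 3.98%, 0% and 0% of all genes passed by limma. An unadjusted p under 0.05 was reached by 2 members at 1 µM (Dhcr7 and Fdft1), 0 at 5 µM and 0 at 10 µM. Dhcr7 differed by 0.75 at 1 µM, 0.39 at 5 µM and 0.30 at 10 µM. At 1 µM the arrays did not overlap for 2 of 10 members, against 13.5% of all genes. Dhcr7 was among them, at 11.70, 10.98 and 11.24 in FSH cells, against 10.59, 10.73 and 10.35 in basal cells. Its adjusted p there was 0.0826, and 0.000667 with the array number as a block. Fdft1 differed by 0.86 at 1 µM (adjusted p = 0.211), by 0.05 at 5 µM and by 0.10 at 10 µM, and its 1 µM difference passed once the spread was estimated without the number 2 pair (adjusted p = 0.0143). At 10 µM the 10 members lay between -0.07 and 0.30, with a median of 0.01.

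**Figure D2:**
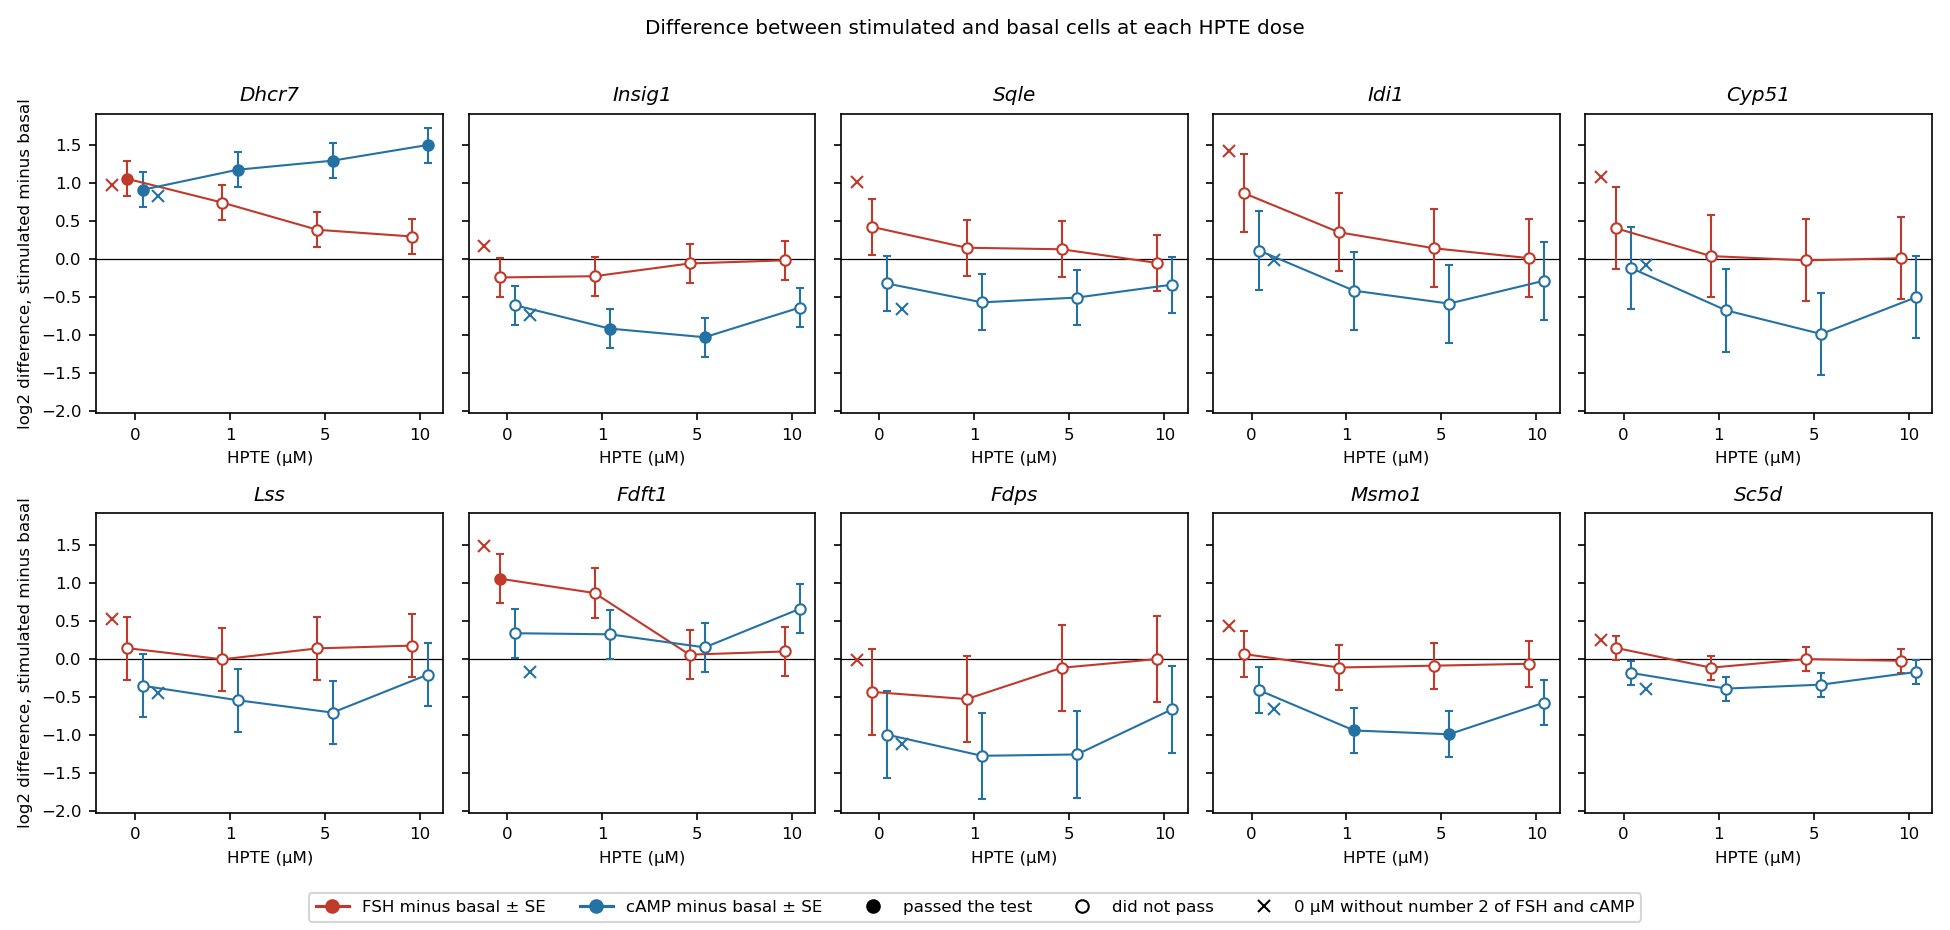
Log2 differences of FSH against basal cells and of cAMP against basal cells are plotted at HPTE doses of 0, 1, 5 and 10 µM for the 10 genes, with bars of 1 SE from the fit over all 36 arrays, filled circles for differences that passed and crosses for the unexposed comparison without the number 2 pair. The Dhcr7 difference is smaller at each higher dose under FSH, down to 0.30 at 10 µM, and reaches 1.51 under cAMP, while Insig1, Msmo1 and Fdps lie below 0 under cAMP.

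Under cAMP, Dhcr7 rose at every HPTE dose and no other member did. The nearest was Fdft1 at 10 µM, with 0.66 (adjusted p = 0.359), which passed only with the array number as a block and without the number 2 pair (adjusted p = 0.0189). Unexposed cAMP cells had Dhcr7 at 11.63, 11.58 and 11.02, against 10.73, 10.58 and 10.17 in unexposed basal cells. The difference was 0.92 ± 0.23 (1.89-fold, adjusted p = 0.0102 by limma). It missed the threshold without the number 2 pair, at 0.83 with an adjusted p of 0.052, and passed when the array number was a block as well (0.000302). Leaving out number 1 of the cAMP group or number 3 of the basal group also ended the call (adjusted p of 0.068 and 0.0849), as did a fit on the compared groups alone (0.098). It was the only member called, 1 of 10, where 3.27% of all genes were higher and 5.94% lower.

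The differences in the exposed cAMP groups do not use the number 2 pair, but the spread behind their adjusted p-values was estimated with it. At 1 µM Dhcr7 was at 11.88, 11.85 and 11.49 in cAMP cells, against 10.59, 10.73 and 10.35 in basal cells. The difference there was 1.18 (2.27-fold, adjusted p = 0.000722). At 5 µM it was at 11.67, 11.99 and 11.64, against 10.71, 10.60 and 10.09, a difference of 1.30 (adjusted p = 0.00024). At 10 µM it was at 12.07, 11.65 and 11.51, against 10.40, 10.44 and 9.88, a difference of 1.51 (2.84-fold, adjusted p = 4.51e-05). No cAMP array overlapped a basal array at any of these doses, and no array left out ended any of these 3 calls.

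Insig1 and Msmo1 fell in cAMP cells at 1 and 5 µM HPTE. Msmo1 encodes the oxidase that removes methyl groups from the sterol ring. Insig1 was at 11.71, 11.81 and 11.93 in cAMP cells at 1 µM, against 12.56, 12.59 and 13.04 in basal cells. The groups were well apart, with a difference of -0.91 ± 0.26 (adjusted p = 0.0221). At 5 µM Insig1 was at 11.66, 11.52 and 12.19, against 12.75, 12.64 and 13.05, a difference of -1.02 (adjusted p = 0.00956). Msmo1 was at 9.73, 9.80 and 9.65 in cAMP cells at 1 µM, against 10.38, 10.55 and 11.09 in basal cells, and the arrays again did not overlap. Its difference was -0.94 ± 0.30 at 1 µM (adjusted p = 0.0467) and -0.99 at 5 µM (adjusted p = 0.0363). These calls depended on single arrays. Leaving out 1 array in turn ended that of Msmo1 in 5 of 6 cases at 1 µM and 4 of 6 at 5 µM, and that of Insig1 in 3 and 2 of 6. Arrays 1 and 2 alone ended that of Msmo1 at both doses (adjusted p of 0.235 and 0.0927) and that of Insig1 at 1 µM (0.106), and a fit on the compared groups alone ended that of Msmo1 at 5 µM (0.0622). At 10 µM Insig1 differed by -0.63 (adjusted p = 0.201) and Msmo1 by -0.58 (adjusted p = 0.404).

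At 1 and at 5 µM, 1 member was thus higher and 2 lower. Of all genes, 4.83% were higher and 5.98% lower at 1 µM, and 4.65% and 5.28% at 5 µM. The median member differed by -0.56 at 1 µM and -0.65 at 5 µM, against 0.03 and -0.02 over all genes, and 8 of 10 members had a negative difference at both doses. The arrays did not overlap for 7 of 10 members at 1 µM, against 25.7% of all genes, and for 3 of 10 at 5 µM, against 24.8%. In unexposed cells and at 10 µM they did not overlap for 3 of 10 each, against 19% and 20.3%. At 10 µM Dhcr7 alone was called, where 3.24% of genes were higher and 4.1% lower, and the median member differed by -0.31.

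The array number moved the other members enough to hide or show calls in cAMP cells. Fdps was at 10.23, 10.16 and 11.07 in cAMP cells at 1 µM, against 11.35, 11.28 and 12.66 in basal cells. Number 3 was the highest in both groups, and the 3 pairs of one number differed by -1.12, -1.12 and -1.59. Without a block the difference of -1.28 ± 0.57 had an adjusted p of 0.217, and with the array number as a block it was 0.000269. At 5 µM its difference was -1.26 (adjusted p = 0.229, and 0.00033 with the block), and in unexposed cells it was -0.9996 (0.442, and 0.00398 with the block). The block also brought in Sc5d, the sterol desaturase gene, at 1 µM (-0.39, adjusted p = 0.0476) and Cyp51, the lanosterol demethylase gene, at 5 µM (-0.98, adjusted p = 0.035). With the block, 1 member was higher and 4 lower at each of these 2 doses, where 11.4% of all genes were higher and 10.6% lower at 1 µM, and 10.5% and 9.9% at 5 µM. Without the number 2 pair as well, the unexposed comparison had 1 higher and 3 lower, which were Fdps (-1.28), Insig1 (-0.76) and Msmo1 (-0.66), where 7.98% of all genes were higher and 14% lower.

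Markers of other cells moved with these comparisons. The summed intensity of 6 of 6 macrophage and leukocyte markers was 294 to 451 in unexposed FSH cells and 291 to 372 in unexposed cAMP cells, against 481 to 858 in unexposed basal cells. It was 287 to 324 in cAMP cells at 1 µM HPTE, against 425 to 820.4 in basal cells, and 335 to 385 at 5 µM, against 452 to 813. At 10 µM the ranges of 372 to 556 and 487 to 695 overlapped. Among those markers Itgam, Csf1r, Aif1 and Ptprc lay at the 1.3, 18.9, 21.6 and 31.1 percentiles of all probe sets, and Cd68 and Cd14 at the 62.7 and 71.9. The sum of 5 measured oocyte markers was 362 to 478 in unexposed FSH cells, against 589.5 to 618 in basal cells, and 752 to 1133 in cAMP cells at 5 µM, against 277 to 542. The sum of 4 endothelial markers was 586 to 693 in unexposed FSH cells, against 431 to 522 in basal cells. The sums of the theca and surface epithelium lists overlapped between unexposed FSH and basal cells. The part of these cells in the results was not tested.

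Set directly against each other without HPTE, FSH and cAMP cells gave no member past the threshold by limma, and 0% of all genes passed. Fdft1 and Sc5d had an unadjusted p under 0.05. All 10 differences were positive, from 0.14 (Dhcr7) to 0.76 (Idi1), with a median of 0.51, against 0.02 over all genes. This comparison rests on both arrays that went against their labels. For Sqle the pairs of one number differed by 1.41, -1.09 and 1.92, and for Fdft1 by 1.43, -1.15 and 1.88. Numbers 1 and 3 lay well above 0 and number 2 well below it. Without the pair, Sqle (1.67, adjusted p = 0.00465), Fdft1 (1.65, adjusted p = 0.00037) and Sc5d (0.64, adjusted p = 0.0345) were higher in FSH cells, where 1.74% of all genes were higher and 0.964% lower. With the array number as a block as well, 8 members were higher, where 7.01% of all genes were, and Dhcr7 and Lss did not pass. The Dhcr7 difference was 0.15 without the pair, with an SE of 0.29. The pair was noticed by genes that differed between FSH and cAMP cells, so the calls without it are not independent of its omission.

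Dhcr7 and Fdft1 fell in FSH cells at 10 µM HPTE. Dhcr7 was at 10.78, 10.47 and 10.37 at 10 µM, against 11.89, 11.72 and 11.06 in unexposed FSH cells. The groups did not overlap, and Dhcr7 fell by 1.02 (SE 0.23, 2.02-fold, adjusted p = 0.00365 by limma). It was -0.93 without the number 2 pair (adjusted p = 0.0223). No array left out ended the call, and a fit on the compared groups alone did (adjusted p = 0.0688). Fdft1 was at 8.79, 9.14 and 9.45, against 10.91, 9.56 and 10.78. It fell by 1.29 (SE 0.32, 2.44-fold, adjusted p = 0.00906), and dropped by 1.71 without the pair (adjusted p = 1.12e-05). Leaving out 1 of 3 arrays (number 1 of either group, or number 3 of the unexposed group) ended the Fdft1 call, with adjusted p of 0.0611 to 0.0763, as did arrays 1 and 2 alone (0.0739) and a fit on the compared groups alone (0.124). Its second probe set fell by 1.28 (adjusted p = 0.014).

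Idi1 had the widest difference of the 10 in this comparison and did not pass. It was at 8.38, 9.08 and 9.48 at 10 µM, against 11.00, 9.37 and 11.06 in unexposed FSH cells. The pairs of one number differed by -2.62, -0.29 and -1.58, and the difference of means was -1.50 ± 0.52 (adjusted p = 0.0733). It passed with the array number as a block (adjusted p = 0.00247) and without the number 2 pair, where it was -2.05 (adjusted p = 0.0143). Sqle also passed without the pair, at -1.26 (adjusted p = 0.00722), against -0.67 with it. Insig1 (0.42, adjusted p = 0.489), Fdps (0.05), Lss, the lanosterol synthase gene (-0.18), and Cyp51 (-0.29) did not pass in either case. For Sc5d the probe sets disagreed: the brightest differed by -0.32 (adjusted p = 0.291), the second by -0.71 (adjusted p = 0.0177) and the third by -0.21 (adjusted p = 0.926).

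In all, 0 members were higher and 2 lower at 10 µM in FSH cells, where 5.83% of all genes were higher and 5.02% lower. The arrays did not overlap for 2 of 10 members, against 22.1% of all genes. The median difference was -0.32 (-0.02 over all genes), and -0.81 without the number 2 pair, with 4 members then lower, where 5.11% of all genes were. At 5 µM no member passed, where 4.41% of genes were higher and 3.87% lower. Dhcr7 was at 10.98, 10.91 and 10.68 at 5 µM, a difference of -0.70 (adjusted p = 0.0709), and Fdft1 was at 9.25, 9.48 and 9.54, a difference of -0.997 (adjusted p = 0.0646). Neither overlapped its unexposed arrays, which made 2 of 10 members, where 19.4% of all genes did not overlap. Both passed with the array number as a block, with adjusted p of 0.000742 and 0.0292, where 10% of all genes were then lower. Without the number 2 pair Dhcr7 differed by -0.62 (adjusted p = 0.225) and Fdft1 by -1.42 (adjusted p = 0.000167), the 1 member lower, where 4.35% of all genes were. At 1 µM no member passed by limma, 0 had an unadjusted p under 0.05, and 0.0141% of all genes passed. These 3 doses share the unexposed FSH arrays.

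Along the 4 doses in FSH cells, Dhcr7 fell by 0.098 and Fdft1 by 0.132 log2 units per µM (adjusted p of 0.00152 and 0.00225). The slopes were -0.0923 and -0.159 without the number 2 pair (adjusted p of 0.00564 and 2.2e-06). They were 2 members lower, where 6.16% of all genes had a falling slope. The group means ran 11.55, 11.31, 10.86 and 10.54 for Dhcr7 and 10.42, 10.24, 9.42 and 9.13 for Fdft1 at 0, 1, 5 and 10 µM. Arrays of 0 and 1 µM overlapped for both genes, as did those of 5 and 10 µM. Idi1 had a slope of -0.136 (adjusted p = 0.0607), which passed with the array number as a block (0.00192). Idi1 (-0.1715, adjusted p = 0.0136) and Sqle (-0.0976, adjusted p = 0.0124) passed without the pair, which made 4 members lower, where 6.33% of all genes were. The macrophage and leukocyte sum was 529 to 897 at 10 µM, against 294 to 451 in unexposed FSH cells, and the oocyte sum was 485 to 780.2, against 362 to 478. Their part in the results was not tested.

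**Figure D3:**
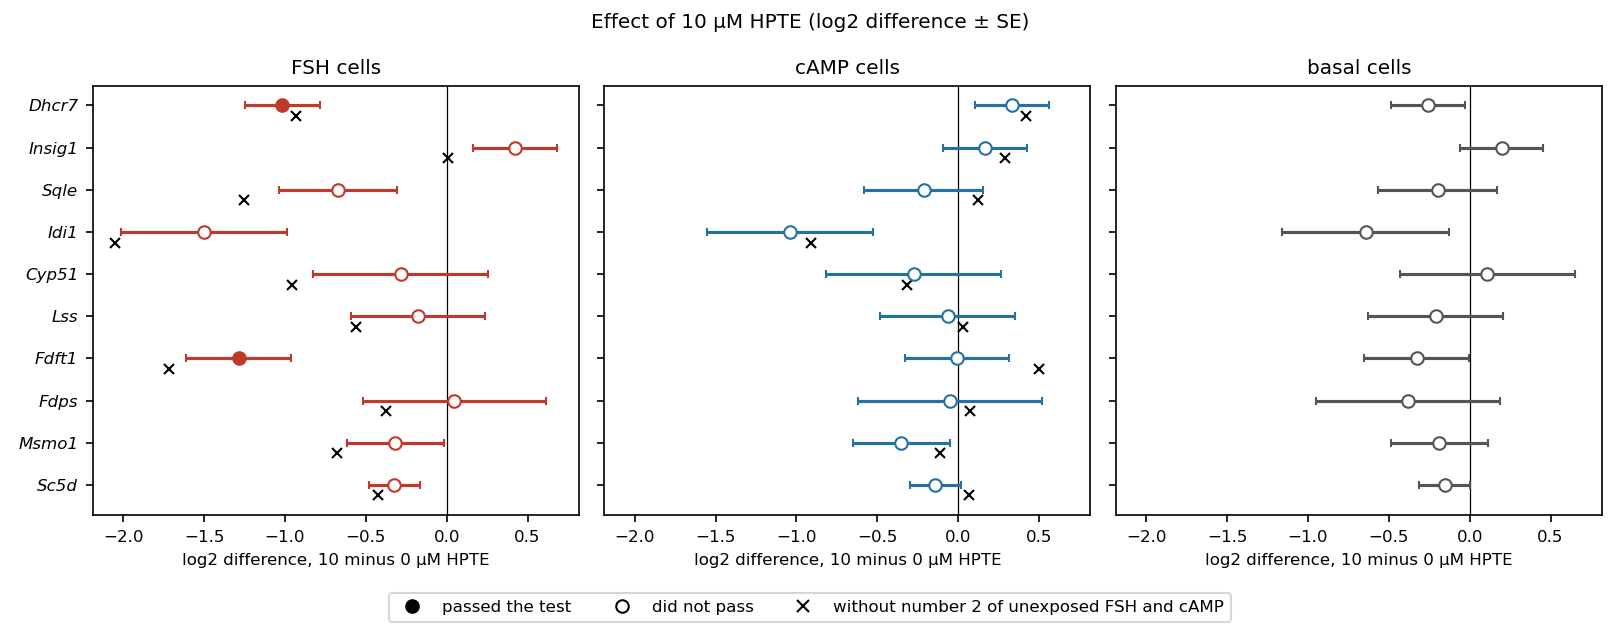
The log2 difference of 10 µM HPTE against 0 µM is plotted for the 10 genes in FSH, cAMP and basal cells, with bars of 1 SE from the fit over all 36 arrays, filled circles for differences that passed and crosses for values without the number 2 pair. Dhcr7 at -1.02 and Fdft1 at -1.29 in FSH cells are the filled circles, and Idi1 lies further below 0 at -1.50 with an open circle.

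In cAMP cells and in basal cells no member passed at any HPTE dose by limma, and 0 had an unadjusted p under 0.05. At 10 µM, 1.81% of all genes were higher and 0.703% lower in cAMP cells, and 0.584% higher and 0.879% lower in basal cells. At 1 and 5 µM the shares passing in either direction were 0% and 0.00703% in cAMP cells and 0% and 0.0281% in basal cells. At 10 µM Dhcr7 differed by 0.33 in cAMP cells, with a 95% interval of -0.14 to 0.81, and by -0.26 in basal cells, with an interval of -0.73 to 0.22. Fdft1 differed by -0.01 in cAMP cells (interval -0.67 to 0.66) and by -0.33 in basal cells (interval -0.99 to 0.34). The unexposed cAMP arrays of Fdft1 were at 9.48, 10.71 and 8.91, and without the number 2 pair the cAMP difference was 0.50 (adjusted p = 0.345). Without that pair 7 of 10 members had a positive difference in cAMP cells at 10 µM, against 2 of 10 with it, and 0 passed in either case. Idi1 had the widest difference in both, -1.04 in cAMP cells (adjusted p = 0.548) and -0.64 in basal cells. In cAMP cells Idi1 was at 8.07, 8.82 and 9.16 at 10 µM, against 9.94, 9.98 and 9.25 at 0 µM, without overlap. It was the 1 member of 10 without overlap there, where 11.9% of all genes did not overlap.

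The change of Dhcr7 with 10 µM HPTE differed between FSH and cAMP cells. The change under FSH minus that under cAMP was -1.35 ± 0.33 (adjusted p = 0.0234 by limma), and it was -1.54, -1.32 and -1.18 in numbers 1 to 3. It was the only member called, 1 of 10, where 1.36% of all genes had a positive and 1.18% a negative difference of changes. The value was -1.35 without the number 2 pair as well (adjusted p = 0.0376). The call was lost after quantile normalization (adjusted p = 0.0556), in a fit on the compared groups alone (0.128) and in 5 of 12 fits that left out 1 array. For Fdft1 the difference of changes was -1.28 (adjusted p = 0.212), and -2.21 without the pair (adjusted p = 0.00012).

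For the difference of changes between FSH and basal cells no member passed, where 2.9% of all genes passed. Dhcr7 had -0.76 there (adjusted p = 0.369, and 0.0169 with the array number as a block), and Fdft1 had -0.96 (adjusted p = 0.487, and 0.01 without the number 2 pair). For that between cAMP and basal cells no member passed either, none had an unadjusted p under 0.05, and 0.19% of genes passed. Between FSH and basal cells, Dhcr7 and Fdft1 had an unadjusted p under 0.05.

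Dhcr7 and, in part, Fdft1 also stood apart in how the members varied over the groups. Over the 12 group means the 9 genes other than Dhcr7 correlated with each other at a median of 0.822, from -0.403 to 0.957. The lowest of these was Fdft1 with Insig1. Fdft1 was also at -0.273 with Fdps, 0.017 with Msmo1, 0.085 with Lss and 0.113 with Cyp51, and at 0.671 with Idi1. Dhcr7 correlated with those 9 genes at a median of -0.595, from -0.891 with Insig1 to 0.682 with Fdft1, and with Fdps at -0.842. These correlations are descriptions over 12 means that share an array platform, array numbers and one normalization. Within groups, after subtraction of the group means, Dhcr7 correlated with the others from -0.656 (Fdps) to 0.32 (Sc5d). It was at -0.459 with Insig1, 0.009 with Sqle and 0.013 with Fdft1. These within-group values keep the shifts between array numbers described further on, and the part of those shifts was not tested.

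The proximal promoters of 8 of the 10 genes were in the RefSeq table (build GRCr8), which held none for Sqle or Fdft1. The 250 bases before the gene start are shown for Dhcr7, the gene that rose in cAMP cells, and for Msmo1. Msmo1 passed as lower in cAMP cells at some HPTE doses only, in calls that depended on single arrays. Capitals mark matches on either strand to TCACNCCA (a core of the sterol regulatory element that SREBP binds), CCAAT (the NF-Y box), GGGCGG (the Sp1 box) or TGACGTCA (the cAMP response element), each printed as its reverse complement where it lies on the other strand. Dhcr7 lies at chr1:208444184-208444433 and Msmo1 at chr16:29746863-29747112, both on the plus strand.
Dhcr7: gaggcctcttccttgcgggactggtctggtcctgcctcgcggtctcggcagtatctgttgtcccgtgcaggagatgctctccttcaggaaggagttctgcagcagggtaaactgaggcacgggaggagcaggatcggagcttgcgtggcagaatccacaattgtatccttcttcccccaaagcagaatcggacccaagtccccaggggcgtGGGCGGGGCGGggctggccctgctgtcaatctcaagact
Msmo1: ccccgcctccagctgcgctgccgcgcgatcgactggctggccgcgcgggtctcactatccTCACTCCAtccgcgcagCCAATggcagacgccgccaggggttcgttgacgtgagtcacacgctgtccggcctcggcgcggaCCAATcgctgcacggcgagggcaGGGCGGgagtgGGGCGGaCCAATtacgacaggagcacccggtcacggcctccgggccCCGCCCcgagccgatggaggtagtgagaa
The Dhcr7 window held 2 GGGCGG matches, which overlap by 1 base, and none of the other 3 motifs. The Msmo1 window held 1 TCACNCCA match, 190 to 183 bases before the start, with 3 CCAAT and 3 GGGCGG matches. TCACNCCA was in the windows of 1 of the 8 genes, Msmo1, and in 3.24% of 33469 promoters of the same length. It was not in the window of Insig1, which passed as lower in cAMP cells at the same doses as Msmo1. A link between the motif and the fall was not tested. CCAAT was in 6 of 8 and in 34% of all, GGGCGG in 7 of 8 and in 30.5%, and TGACGTCA in 0 of 8 and in 1.59%. A match is a run of letters and was not tested as a binding site.

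Number 3 of the groups differed from numbers 1 and 2 for several members, and not in one direction. Fdps was higher in number 3 in 12 of 12 groups, by 1.16 log2 units on average, and Cyp51 by 0.95, Idi1 by 0.85 and Lss by 0.70, each in 11 of 12. These averages lay at the 94.6 percentile or above among all genes. Dhcr7 was lower in number 3 in all 12 groups, by 0.40 on average, at the 13.3 percentile. Sc5d averaged -0.11, and Insig1, Msmo1, Fdft1 and Sqle lay between 0.14 and 0.33. Other probe sets differed: the third of Sc5d averaged 0.65 and was higher in number 3 in 11 of 12 groups, while its second averaged -0.095. The second of Lss averaged 0.12, higher in 8 of 12. By the brightest probe sets, the group in which number 3 was not higher, for Cyp51, Idi1 and Lss, was the group of unexposed cAMP cells. Gapdh's 3′ to 5′ ratio was lower in number 3 throughout. Its part in these values was not tested.

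**Figure D4:**
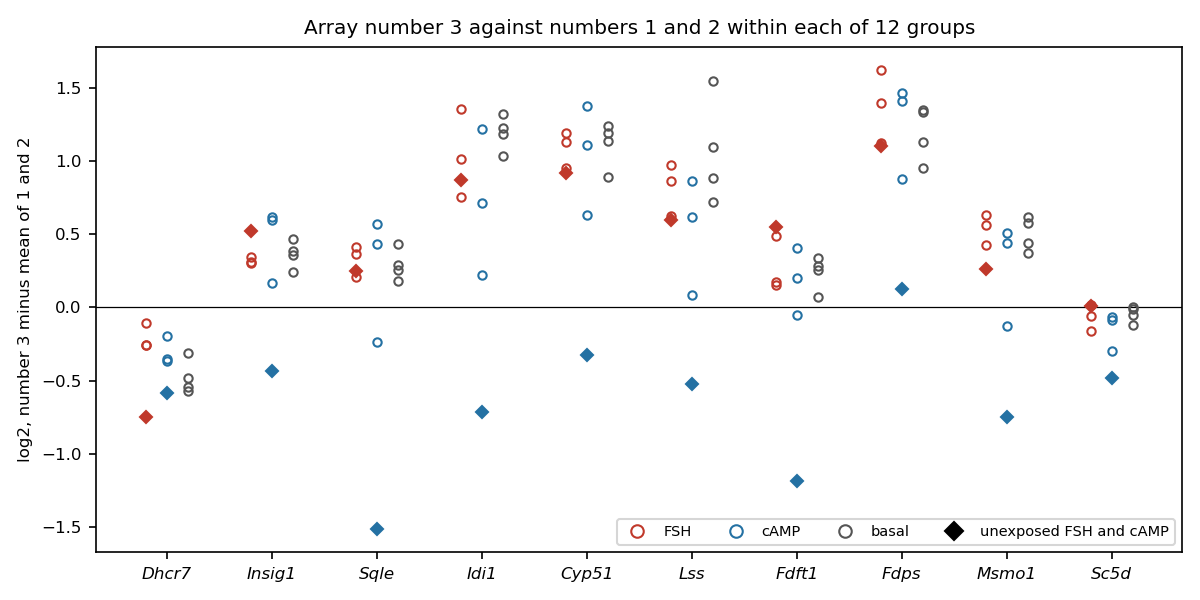
For each gene the log2 level in array number 3 minus the mean of numbers 1 and 2 is plotted in each of the 12 groups (points: FSH, cAMP and basal groups from left to right; diamonds: the unexposed FSH and cAMP groups, which hold the number 2 pair). Fdps lies above 0 in all 12 groups and Dhcr7 below 0 in all 12.

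Of the other genes of the pathway, 10 of 13 listed were measured. The list was chosen with earlier results of these data known. Hsd17b7, a sterol ketone reductase that also reduces oestrone, rose by 1.96 in unexposed FSH cells against basal cells (adjusted p = 0.00324) and fell by 2.00 (adjusted p = 0.00268) at 10 µM HPTE in FSH cells. Hsd17b7 differed by 2.35 and -2.39 without the number 2 pair. It was 1 of 10 in each comparison. At 10 µM in FSH cells Mvd, the diphosphomevalonate decarboxylase gene, differed by -0.88 (adjusted p = 0.0815), and passed with the array number as a block (0.0467) and without the pair (-1.20, adjusted p = 0.00891), where Acat2, an acetyl-CoA acetyltransferase gene, passed too (-0.82, adjusted p = 0.0141). In cAMP cells none of the 10 passed at any dose against basal cells by limma without a block, and their median difference was -0.55 at 5 µM. With the array number as a block Hsd17b7 was higher in unexposed cells (1.27, adjusted p = 0.029), Acat2 was lower at 1 µM (-0.71, adjusted p = 0.031), and Tm7sf2 (-1.22) and Pmvk (-0.60) were lower at 5 µM (adjusted p of 0.0191 and 0.0365). Acat2 and Tm7sf2 also passed at those doses once the spread was estimated without the pair (adjusted p of 0.0163 and 0.016).

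Among 10 measured regulators, Insig2, a homologue of Insig1, and Mbtps2, a protease that releases SREBP from the membrane, rose in unexposed FSH cells, by 0.68 (adjusted p = 0.0289) and 0.76 (adjusted p = 0.0111). They also rose in cAMP cells at 1 µM, by 0.98 and 0.87, the dose at which Insig1 fell, and at 5 µM, by 0.66 and 0.68. Mbtps2 alone passed in unexposed cAMP cells, at 0.81 (adjusted p = 0.00642). At 5 µM HPTE in FSH cells Insig2 fell by 0.72 and Mbtps2 by 0.64 (adjusted p of 0.0235 and 0.0422). These calls in unexposed cells and at 5 µM HPTE in FSH cells held without the number 2 pair, at 0.80 for Insig2 and 0.81 for Mbtps2 under FSH, 0.97 for Mbtps2 under cAMP, and -0.84 and -0.70 at 5 µM. None of the other 8 regulators passed in these comparisons without a block. With the array number as a block, Insig2 passed in unexposed cAMP cells (0.41, adjusted p = 0.0357), Erlin1 in cAMP cells at 5 µM (0.54, adjusted p = 0.00491) and Mbtps1 at 5 µM HPTE in FSH cells (-0.41, adjusted p = 0.0219).

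The 7 measured genes that turn cholesterol into steroids rose together in unexposed FSH cells, 7 of 7, with a median of 3.43 on the log2 scale, against 0.28 for the 10 synthesis genes. In unexposed cAMP cells 6 of the 7 rose, with a median of 3.34, and without the number 2 pair 5 did, with a median of 2.34. Cyp19a1, by which that pair was noticed, is among the 7, so counts of them without the pair are not independent of its omission. Cyp11a1, which cuts the cholesterol side chain, rose by 4.97 in FSH cells and by 4.15 in cAMP cells. At 10 µM HPTE in FSH cells 4 of the 7 fell, and Cyp11a1 fell by 4.37 (adjusted p = 0.000323). Its differences without the number 2 pair were 5.42, 3.64 and -4.82, and 5 of the 7 genes then fell at 10 µM. Scarb1, the receptor that takes up cholesterol from lipoproteins, rose by 3.07 under FSH and by 2.24 under cAMP and fell by 3.03 (adjusted p = 0.000158) at 10 µM HPTE in FSH cells. These were 3.78, 1.84 and -3.74 without the number 2 pair. Scarb1 was the 1 called of 8 measured sterol-regulated genes outside synthesis in each of these 3 comparisons by limma without a block. Of all genes, 4.89% were higher under FSH, 3.27% higher under cAMP and 5.02% lower at 10 µM HPTE. With the array number as a block more of the 8 passed in each of these comparisons, in both directions. The block called more of all genes too, as in cAMP cells at 1 µM HPTE, where 10.6% were lower with it and 5.98% without. Without the pair 3 of the 8 were higher under FSH and 3 were lower at 10 µM HPTE, and more than 1 passed under cAMP, in both directions. Of all genes 5.09% were then higher under FSH and 5.11% lower at 10 µM HPTE. Of 8 genes of fatty acid synthesis, Scd, a desaturase, fell in cAMP cells at 1 µM by 1.69 (adjusted p = 0.0302) and at 5 µM by 1.62 (adjusted p = 0.0432). Me1, the malic enzyme gene, rose at both doses, by 0.67 and 0.75.

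The genes most like the members in pattern were taken as the 6 with the highest correlation, over the 12 group means, with the members' mean profile. They came from 2401 genes whose group means had an SD of at least 0.3. They were Nsdhl (0.949) and Mvd (0.91), both enzymes of the same pathway, Stard4 (0.898), a sterol transfer protein, Elovl6 (0.889), a fatty acid elongase, Prickle1 (0.862) and Ms4a6bl1 (0.854). The members' mean profile was highest in unexposed FSH cells, at 0.44 relative to its own mean, and lowest in cAMP cells at 5 µM, at -0.39.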

How the data were processed

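Total RNA of 36 samples (40 ng each) was amplified and measured on the Affymetrix Rat 230 2.0 platform, per the labels. The deposited values are the authors' intensity values on a linear scale, made by RMA per the submitters' processing notes, which summarise the probes of a probe set after background correction and quantile normalization. The number of arrays limits the precision. From the authors' intensities, log2 values were taken with no further normalization, and 57 control probe sets were left out, which leaves 31042. A probe set was named only where the platform annotation gave 1 symbol (20826 probe sets, and RefSeq supplied the current symbol for 20758 of these), 436 had several and 9780 none. Probes of the Cyp51 probe set can match several transcripts.

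A model of 12 group means was fitted with limma 3.58.1 in R 4.3.3 (24 residual degrees of freedom). P-values were adjusted by the method of Benjamini and Hochberg over all 31042 probe sets of each of 24 comparisons, and a call is an adjusted p under 0.05. Arrays of the same number deviated together, with every correlation over 0.1 in 17 of 18 comparisons and -0.124 for number 2 of unexposed FSH against cAMP cells. The numbers were therefore taken to pair the samples, on the data and not on a label, and the block is given where it changes a call.

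The members and the gene lists were chosen with earlier results of these data known. Named genes are the members, genes of those lists and the 6 genes most like the members. Alternatives were a block, quantile normalization, the mean of a gene's probe sets, a filter at the median level, arrays 1 and 2 alone, omission of the number 2 pair, a fit on the compared groups alone and omission of each array.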

Additional observations from a re-analysis of the deposited data

Results flagged for a closer look

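The change of Dhcr7 between 10 and 0 µM HPTE differed between FSH and cAMP cells by a test of the difference itself. Under FSH the change was -1.02 and under cAMP it was 0.33, a difference of -1.35 ± 0.33 (log2, SE, adjusted p = 0.0234 by limma), with the same sign in all 3 array numbers. No other value of the 10 genes met the conditions for a closer look. Groups of 3 arrays are too small for the test of single outlying samples.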

How the results depend on the processing

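The counts of members called depend on the array number, on the number 2 pair of the unexposed FSH and cAMP groups, and on how the spread is estimated. Of 15 single calls, 15 held with the array number as a block, 15 with the mean of a gene's probe sets, 15 with dim probe sets left out, 14 after quantile normalization, 14 without the pair, 10 with arrays 1 and 2 alone and 8 in fits on the compared groups alone. None changed sign. Values that passed in neither case changed sign in 31 of 213 cases without the pair and in 26 of 220 with arrays 1 and 2 alone, so the direction of a member that did not pass is not settled.

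With the replicate block the number of members called became 2 for cAMP against basal cells without HPTE, 5 at 1 µM and 5 at 5 µM. It became 1 for FSH against basal cells at 1 µM, 2 for 5 µM HPTE in FSH cells and 1 for the change in FSH minus basal cells. The block changed no other count by more than 1.5 times. Without the number 2 pair the counts were 0 for cAMP against basal cells, 3 for FSH against cAMP cells, 1 for FSH against basal cells at 1 µM, 1 for 5 µM HPTE in FSH cells, 4 for 10 µM and 4 for the slope. They were 1 and 2 for the changes in FSH minus basal and FSH minus cAMP cells. The block together with omission of the pair was an alternative chosen after seeing the data. It called more of all genes as well. For FSH against basal cells without HPTE 10.4% were then higher, against 4.89% in the main fit, and for cAMP 14% were lower, against 5.94%. Counts in this section printed without a share are not set against all genes, and a larger count there is not a result about the members. This alternative gave 4 for FSH and 4 for cAMP against basal cells without HPTE, and 2 for FSH at 1 µM. It gave 5, 6 and 4 for cAMP at 1, 5 and 10 µM, and 8 for FSH against cAMP cells, where 7.01% of all genes were higher. In FSH cells it gave 4 at 5 µM, 6 at 10 µM and 5 for the slope, and 2 and 3 for the changes in FSH minus basal and FSH minus cAMP cells.

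Arrays 1 and 2 alone gave 1 for FSH against basal cells and 1 for 5 µM HPTE in FSH cells. The filter gave 2 for 5 µM HPTE in FSH cells. Quantile normalization gave 0 for the change in FSH minus cAMP cells. Fits on the compared groups alone, which have fewer residual degrees of freedom, gave 0 for that change, for FSH and for cAMP against basal cells without HPTE, and for 10 µM HPTE in FSH cells. When 1 array was left out in turn, counts ran from 1 to 2 for FSH against basal cells, 0 to 1 for cAMP against basal cells and 0 to 1 for FSH against basal cells at 1 µM. They ran from 1 to 3 for cAMP at 1 µM and again at 5 µM, 0 to 1 for 5 µM HPTE in FSH cells, 1 to 4 for 10 µM, 2 to 4 for the slope and 0 to 2 for the change in FSH minus cAMP cells. The causes of these shifts were not tested.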
